A study of Rattus norvegicus with 16 samples.

Results

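The genes of the major histocompatibility complex (MHC) class II pathway were followed in rat kidney cortex across 6 groups of genotype and iron exposure. They were taken by the gene name in the scanner files: RT1-Da, RT1-Db1, RT1-Ba, RT1-Bb, RT1-DMa, RT1-DMb, Cd74 and Ciita. These 8 genes had 10 of the 45598 probes of the array, and 7 of the 8 passed the detection filter that left 15987 genes for testing. RT1-Ba did not pass it. The tissue came from male Jcl:SD rats, 8 arrays from rats with 1 mutated copy of BRCA1 (BRCA1+/-), a gene of DNA break repair, and 8 from wild-type rats. Fe-NTA (ferric nitrilotriacetate), an iron chelate that injures the proximal tubule by oxidation, was injected into the peritoneum from 4 weeks of age, 5 times a week. Doses began at 5 mg iron/kg for a pair of injections, went up to 7 mg iron/kg within the first week and were 10 mg iron/kg in later weeks. The rats were killed 48 h after their final dose. For each genotype there were 2 control arrays, 3 arrays at 1 week of Fe-NTA and 3 at 3 weeks. The labels give no vehicle, age or time of sampling for the controls, so Fe-NTA and age cannot be told apart. Between 1 and 3 weeks age and dose went up together with time, and these cannot be told apart either. Whether each array of a group stands for a rat of its own is not stated, so the p-values cover only the spread among these arrays, which may be technical.

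MHC class II molecules sit on the surface of antigen-presenting cells and display peptides from engulfed or internal proteins to CD4+ T cells. In the rat the classical molecules are RT1-D and RT1-B, each a pair of an alpha and a beta chain. Cd74, the invariant chain, blocks their groove and guides them to the endosome, where the RT1-DM pair helps to exchange its remnant for peptides. Ciita, the class II transactivator, is recruited to a set of short promoter elements called the X and Y boxes and switches the pathway on, also in response to interferon gamma. In kidney, class II is carried by resident and infiltrating macrophages, dendritic cells and B cells, and tubular epithelium can take it on under inflammation.

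Values are log2 processed spot signals from which the 75th percentile of each array was subtracted ("scaled log2 signal"), and a change is a difference between such values. Between 32.7% and 60.4% of the probes were well above background on an array, the 75th percentile ran from 20.1 to 78.5, and 0 spots were saturated. The wild-type controls had the lowest 75th percentiles, 20.1 and 25.0. BRCA1+/- controls had 58.5 and 35.5, and wild type had 59.6, 35.6 and 25.2 after 1 week and 37.4, 43.5 and 77.2 after 3 weeks. The part of this low brightness in comparisons with the wild-type controls was not tested. Arrays of a group correlated at Pearson r 0.964 or more across genes, except in wild-type cortex after 1 week, where the lowest r was 0.905. The number of arrays limits the precision. The tissue label was checked against marker genes: 9 of 9 proximal tubule, 4 of 4 thick limb and distal tubule, 4 of 4 collecting duct and 2 of 4 podocyte markers were well above background on every array. Brca1 was read by 2 probes, 1 of them not well above background on any array. The other read -0.04 and -3.44 in the BRCA1+/- controls and -3.31 and -2.7 in the wild-type controls. It did not differ by genotype on average (log2 0.33 ± 0.41, limma adjusted p = 0.87), and as no source says where the mutation lies, it tests nothing about the genotype labels. The arrays lay on 2 slides. On both slides the wild-type controls and both 1-week groups lay in row 1, and the BRCA1+/- controls and both 3-week groups in row 2. Row and group therefore cannot be told apart for wild type after 3 weeks against controls, BRCA1+/- after 1 week against controls, 3 weeks against 1 week, and the genotypes among controls. The groups shared a row for wild type after 1 week and BRCA1+/- after 3 weeks against their controls, and for the genotypes at 1 week and at 3 weeks. Both interactions of genotype and Fe-NTA, and in part the genotype average, hold a row difference, because the controls of the genotypes differ in row.

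The promoters of the classical chains and of RT1-DMa are shown because Ciita acts through boxes in promoters of this kind. Of the 8 genes, 6 had an entry in the RefSeq promoter table (build GRCr8). Letters were searched in the 250 bases before the annotated start, on both strands: TGATTGG for the Y box, ACNGATG for the X box and TGACGTCA for the X2 element. The X box letters, and the spacing given for them, were chosen after reading these promoters, so their presence there is no finding. Capitals mark the matches in the stretches printed, each 87 bases long and 5′ to 3′ on the coding strand.
RT1-Da (chr20:4515304-4515390, + strand): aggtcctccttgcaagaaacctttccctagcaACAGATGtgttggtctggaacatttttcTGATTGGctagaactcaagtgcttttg
RT1-Db1 (chr20:4560218-4560304, - strand): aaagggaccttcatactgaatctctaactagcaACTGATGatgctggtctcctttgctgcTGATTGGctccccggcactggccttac
RT1-Ba (chr20:4576952-4577038, + strand): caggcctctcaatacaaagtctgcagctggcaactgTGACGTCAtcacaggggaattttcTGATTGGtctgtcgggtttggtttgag
RT1-Bb (chr20:4604155-4604241, - strand): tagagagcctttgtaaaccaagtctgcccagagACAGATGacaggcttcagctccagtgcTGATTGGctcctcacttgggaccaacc
RT1-DMa (chr20:4712375-4712461, - strand): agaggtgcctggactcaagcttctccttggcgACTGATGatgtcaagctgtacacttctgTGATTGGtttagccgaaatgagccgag

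All 5 held the Y box letters, which began 51 bases before the start in RT1-Da, 82 in RT1-Db1, 45 in RT1-Ba, 63 in RT1-Bb and 66 in RT1-DMa. Of all 33469 promoters in the table, 6.42% held them. The X box letters stood in RT1-Da, RT1-Db1, RT1-Bb and RT1-DMa, with 20 or 21 bases between the end of the X box and the Y box, and in 8.55% of all promoters. Both sets of letters together occurred in 181 promoters (0.54%), and the 20 or 21 base spacing in 4, which were these 4 genes. A stricter form, with a G 3 bases before the first of the X box letters, was found in the same 4 class II promoters and in 2.26% of all promoters, and together with the Y box in 70 promoters (0.21%). That G can be read in the 4 printed stretches, so its presence there is no finding either. RT1-Ba lacked the X box letters searched for and held the X2 letters, which began 69 bases before its start. As the search was for fixed letters, it does not show that RT1-Ba lacks an X box. The X2 letters occurred in 1.59% of all promoters. None of the 3 sets of letters was found in the Cd74 window, and RT1-DMb and Ciita had no entry.

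**Figure D1:**
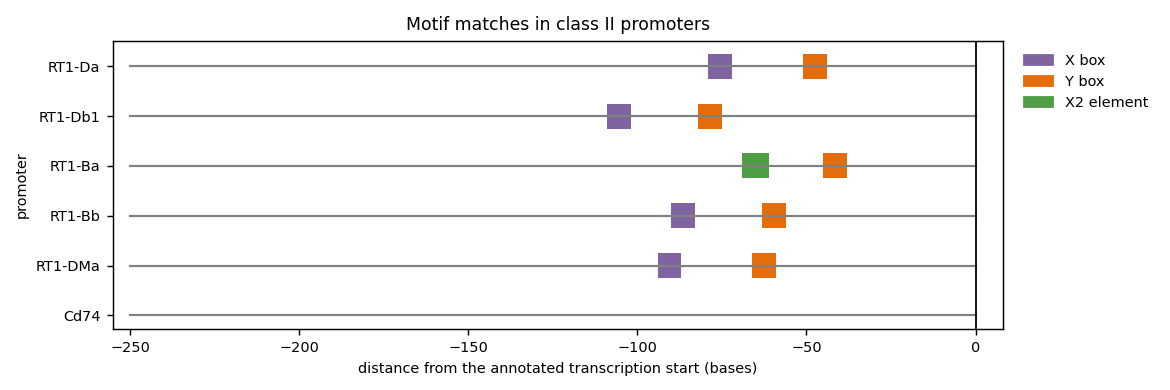
Places of the motif letters in the 250 bases before the annotated start of 6 class II genes (x axis: distance from the start in bases; 1 line per promoter; boxes to scale). The Y box lies 45 to 82 bases before the start in 5 promoters, and the X box letters stand upstream of it in 4. RT1-Ba has the X2 letters upstream of its Y box, and the Cd74 line has no match drawn.

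The invariant chain Cd74 rose in wild-type cortex after 3 weeks. BRCA1+/- arrays had scaled log2 signals of 3.3 and 2.34 in the controls, 2.56, 3.02 and 2.86 after 1 week, and 2.89, 3.84 and 3.93 after 3 weeks. In wild-type cortex it was 2.16 and 2.3 in the controls, 4.01, 1.71 and 2.26 after 1 week, and 3.63, 4.17 and 4.46 after 3 weeks. The wild-type 3-week arrays all lay above the wild-type controls, while 1 wild-type array after 1 week was high and the other two were near or under the controls. The change after 3 weeks was 1.86 ± 0.54 (log2 ± SE, 3 arrays against 2, limma adjusted p = 0.032). After 1 week it was 0.43 ± 0.54 (0.6). In BRCA1+/- cortex the changes were 0 ± 0.54 after 1 week (1) and 0.73 ± 0.54 after 3 weeks (0.35). Ordered by group mean, the level ran from 4.09 ± 0.42 in wild type after 3 weeks (SD, n = 3) through 3.55 ± 0.58 in BRCA1+/- after 3 weeks (n = 3) to 2.23 ± 0.1 in wild-type controls (n = 2). The other means lay between 2.66 and 2.82. Every pair of neighbours in that order overlapped in its arrays. The Cd74 probe was printed 10 times on each array, and the median SD between these spots was 0.051 on the log2 scale.

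RT1-Bb, the beta chain of RT1-B, also rose in wild-type cortex after 3 weeks. It read 1.19 and 0.72 in BRCA1+/- controls, 0.55, 1.22 and 0.82 after 1 week, and 0.72, 1.74 and 1.75 after 3 weeks. The wild-type arrays read 0.32 and 0.13 in controls, 2.23, 0.14 and 1.91 after 1 week, and 1.46, 1.99 and 2.43 after 3 weeks. All wild-type 3-week arrays were above both controls, and replicate 2 of the wild-type 1-week group stood at the control level. RT1-Bb rose by 1.73 ± 0.51 in wild type after 3 weeks (limma adjusted p = 0.036). The wild-type change after 1 week was 1.19 ± 0.51 (0.1), and the BRCA1+/- changes were -0.09 ± 0.51 after 1 week (0.94) and 0.44 ± 0.51 after 3 weeks (0.55). Group means ran from 1.96 ± 0.48 in wild type after 3 weeks (SD, n = 3) down to 0.23 ± 0.14 in wild-type controls (n = 2). Of the neighbours in that order, the lowest pair did not overlap: BRCA1+/- after 1 week at 0.86 ± 0.34 (n = 3) and the wild-type controls.

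RT1-Ba, the alpha chain that pairs with RT1-Bb, was near background. Its 60-base probe and that of RT1-Bb are shown because these are partner chains, of which RT1-Bb was well above background on all 16 arrays and RT1-Ba on 4. The scanner files place them at chr20:4700973-4701032 (+ strand) and chr20:4732187-4732246 (- strand) and name the build rn4 in their headers. They start at bases 324 and 761 of the transcript, and the files name no exon or UTR.
RT1-Ba: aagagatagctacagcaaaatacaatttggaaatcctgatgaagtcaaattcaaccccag
RT1-Bb: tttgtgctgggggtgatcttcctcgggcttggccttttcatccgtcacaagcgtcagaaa
RT1-Ba was above background on 4 of the 12 Fe-NTA arrays, against 0 of the 4 control arrays. It read -5.01 and -2.59 in BRCA1+/- controls, -2.18, -1.47 and -2.16 after 1 week, and -2.56, -4.67 and -5.19 after 3 weeks. In wild type it read -3.34 and -3.79 in controls, -4.78, -1.63 and -3.3 after 1 week, and -1.29, -4.36 and -4.2 after 3 weeks. The 4 arrays above background were replicates 1 and 2 of BRCA1+/- after 1 week, replicate 2 of wild type after 1 week and replicate 1 of wild type after 3 weeks. In a fit without the filter RT1-Ba passed in none of the 12 comparisons (limma, lowest adjusted p = 0.61, in BRCA1+/- after 1 week). A second RT1-Bb probe, placed at another site on the same chromosome, was well above background on 0 of 16 arrays and is not read further.

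RT1-Da and RT1-Db1, the alpha and beta chains of RT1-D, were well above background on all 16 arrays and neither passed the test. RT1-Da read 0.83 and -0.49 in BRCA1+/- controls, 0.93, 0.75 and 0.52 after 1 week, and 0.63, 0.97 and 1.75 after 3 weeks. It read 0.18 and -0.11 in wild-type controls, 2, -0.38 and 1.41 after 1 week, and 1.18, 1.13 and 2.02 after 3 weeks. The wild-type 3-week arrays lay above both controls, and the 1-week arrays lay on either side of them. The RT1-Da change was 1.41 ± 0.57 in wild type after 3 weeks (limma adjusted p = 0.11) and 0.98 ± 0.57 after 1 week (0.23). In BRCA1+/- cortex it was 0.95 ± 0.57 after 3 weeks (0.26) and 0.56 ± 0.57 after 1 week (0.61).

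RT1-Db1 read 1.33 and 1.56 in BRCA1+/- controls, 1.25, 1.8 and 1.51 after 1 week, and 1.3, 1.64 and 1.89 after 3 weeks. The wild-type arrays read 1.43 and 1.17 in controls, 2.66, 0.7 and 2.83 after 1 week, and 2.07, 1.95 and 2.3 after 3 weeks. The BRCA1+/- groups overlapped throughout. The wild-type change was 0.76 ± 0.47 after 1 week (limma adjusted p = 0.26) and 0.81 ± 0.47 after 3 weeks (0.27), and the BRCA1+/- changes were 0.07 ± 0.47 (0.95) and 0.16 ± 0.47 (0.83). A related beta chain gene, RT1-Db2, has its own probe, which shares 19 of 60 bases with that of RT1-Db1 at the best ungapped alignment. The files do not say whether either probe also binds the other transcript.

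RT1-DMa, the alpha chain of the peptide editor, rose in wild-type cortex at both times. It read -1.3 and -2.9 in BRCA1+/- controls, -0.69, -0.44 and -0.95 after 1 week, and -0.89, -0.45 and -0.82 after 3 weeks. In wild type it read -3.19 and -2.33 in controls, 0.27, -1.95 and -0.2 after 1 week, and -0.02, -0.47 and -0.47 after 3 weeks. Both wild-type controls, BRCA1+/- control replicate 2 and wild-type 1-week replicate 2 were not well above background. All Fe-NTA arrays of a genotype lay above its controls at both times. In wild type after 3 weeks such a separation held for 28.2% of all genes, and the shares in the other comparisons are not given here. Because the wild-type controls give a bound, RT1-DMa was at least 1.66-fold higher after 1 week (limma adjusted p = 0.0099) and at least 2.05-fold higher after 3 weeks (0.0091). These bounds set the mean of the Fe-NTA arrays against, for each control array, the higher of its own value and the lowest signal well above background there, and 2 of the 3 arrays after 1 week and 3 of 3 after 3 weeks were themselves well above background. The adjusted p-values belong to the fitted differences, 2.14 ± 0.55 and 2.44 ± 0.55. With dim values on every array set to 1 common detection limit, the change was 0.73 at both times and did not pass (adjusted p = 0.13 after 1 week and 0.17 after 3 weeks), and 0.73 on the log2 scale is less than the 3-week bound. RT1-DMa passed the detection filter through Fe-NTA groups and not through a control group, which favours a higher value after Fe-NTA. The BRCA1+/- changes were 1.41 ± 0.55 after 1 week (0.14) and 1.38 ± 0.55 after 3 weeks (0.099). With normexp background correction the wild-type changes were 0.28 after 1 week and 0.27 after 3 weeks, and neither passed.

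RT1-DMb, the beta chain of the same editor, was well above background on all arrays and had the narrowest range of the tested class II genes, 1.28 on the log2 scale from the lowest to the highest array. It read 0.9 and 0.87 in BRCA1+/- controls, 0.49, 1.14 and 0.53 after 1 week, and 0.39, 0.58 and 0.68 after 3 weeks. In wild type it read 0.66 and 0.14 in controls, 0.86, -0.14 and 0.98 after 1 week, and 1.02, 0.91 and 0.71 after 3 weeks. The BRCA1+/- 3-week arrays lay under both of their controls and the wild-type 3-week arrays above theirs. Neither change passed: it was -0.34 ± 0.33 in BRCA1+/- (limma adjusted p = 0.48) and 0.48 ± 0.33 in wild type (0.36). The 95% intervals ran from -1.04 to 0.36 and from -0.22 to 1.19.

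Ciita, the regulator of the whole set, was dim. Its main probe was well above background on 11 of 16 arrays, among them all 8 of BRCA1+/- cortex. It read -0.91 and -1.2 in BRCA1+/- controls, -1.45, -1.3 and -1.02 after 1 week, and -1.48, -1.53 and -1.35 after 3 weeks. The wild-type controls read -3.06 and -1.18, both not well above background. Wild-type arrays at 1 week read 0.31, -1.72 and -0.77, and those at 3 weeks -1.59, -0.73 and -0.76. The wild-type differences did not pass after 1 week (limma adjusted p = 0.067) or after 3 weeks (0.19), and with dim controls they have no measured size. A second Ciita probe read -1.3 and -1.73 in the BRCA1+/- controls and -3.22 and -2.62 in the wild-type controls, the wild-type values again not well above background. The probes differed in wild type after 1 week, where the first gave a fitted difference of 1.39 ± 0.54 and the second 0.54 ± 0.54 (adjusted p = 0.5). After 3 weeks in wild type the second probe read -1.63, -1.55 and -0.86, all well above background and above both controls. Its fitted difference there was 1.58 ± 0.54 and did not pass (limma adjusted p = 0.062), and that of the first was 1.1 ± 0.54. For BRCA1+/- the main probe changed by -0.2 ± 0.54 after 1 week (0.87) and by -0.4 ± 0.54 after 3 weeks (0.61). The second probe changed by -0.35 ± 0.54 (0.76) and by -0.37 ± 0.54 (0.65).

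**Figure D2:**
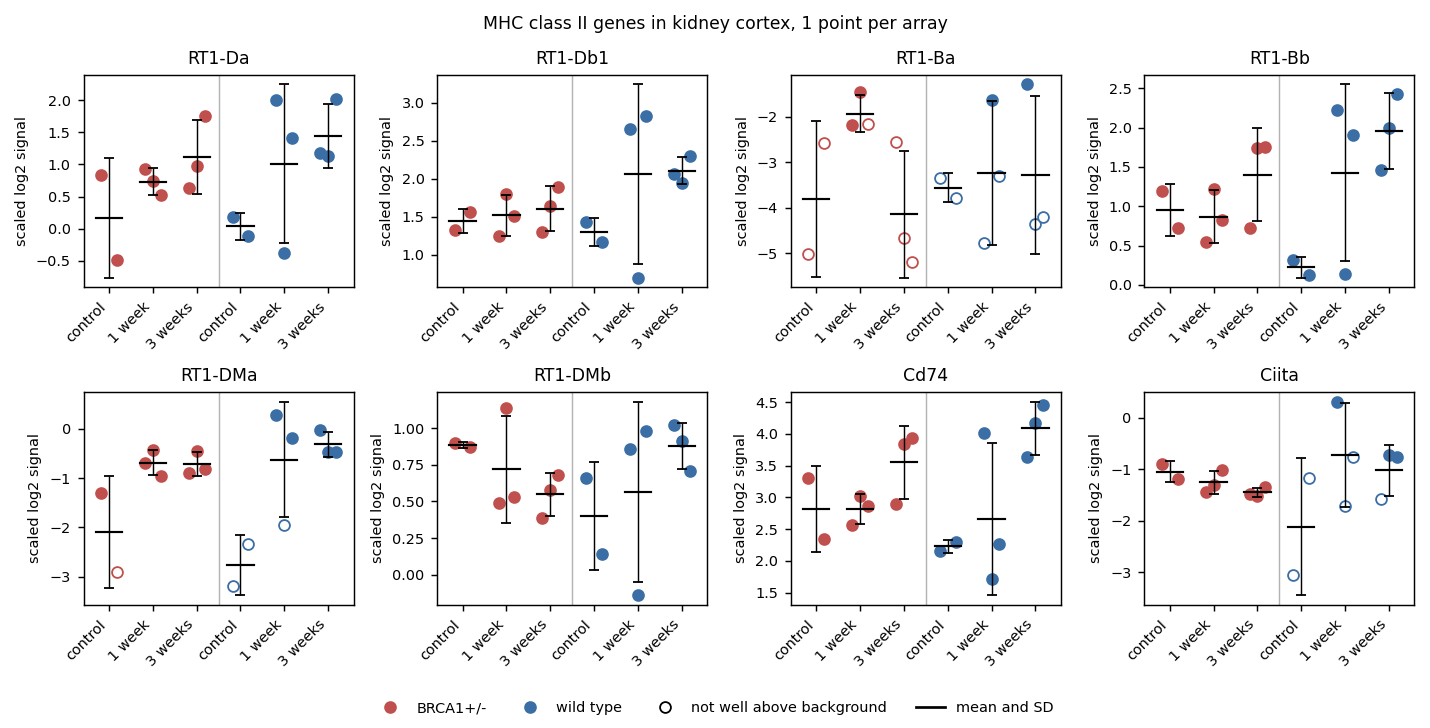
Scaled log2 signal (y axis) of the 8 class II genes by group (x axis: control, 1 week and 3 weeks of Fe-NTA, BRCA1+/- left and wild type right); 1 point per array, open where not well above background, with the group mean and SD. The wild-type 3-week points of Cd74, RT1-Bb and RT1-DMa all lie above the wild-type controls, and in most panels 1 wild-type 1-week point lies far under the other two.

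Counted over the tested genes of the class II set, 3 of 7 rose in wild type after 3 weeks (Cd74, RT1-Bb and RT1-DMa) and 0 fell, where 8.74% of all genes rose and 14.3% changed. All 3-week arrays lay above all control arrays for 6 of the 7, which was so for 28.2% of all genes. The median change was 1.41, against -0.02 over all genes. After 1 week in wild type 1 of 7 rose (RT1-DMa) and 0 fell, where 12.8% of all genes rose and 27.1% changed, so the share called was close to that of all genes. The median change after 1 week was 0.98, against -0.02. RT1-DMa passed the detection filter only through Fe-NTA groups, which favours a rise. It is 1 of the 3 genes called after 3 weeks and the only 1 called after 1 week. With the slide as a block the called changes were 2.02 for RT1-DMa after 1 week (limma adjusted p = 0.0058) and, after 3 weeks, 2.32 for RT1-DMa (0.0054), 1.69 for RT1-Bb (0.046) and 1.8 for Cd74 (0.039). Within slide 1 the same changes were 2.37 (0.034), 2.09 (0.12), 1.59 (0.3) and 1.6 (0.39). Within slide 2 they were 1.24 (0.16), 2.72 (0.097), 2.1 (0.16) and 2.31 (0.13). All within-slide changes were positive, and 1 of the 8 passed. Without wild-type control replicate 1, 0 of 7 passed at either time. The 3-week changes in wild type cannot be told apart from the slide row, while those after 1 week lay within 1 row.

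In BRCA1+/- cortex 0 of 7 passed after 1 week (limma; 1 at an unadjusted p under 0.05), where 7.47% of all genes changed. After 3 weeks 0 of 7 passed (1 at an unadjusted p under 0.05), where 15.9% changed. Of all 15987 genes, 3657 after 1 week and 5349 after 3 weeks were under that unadjusted level, a larger share than 1 of 7. The class II gene under that level was RT1-DMa both times. Median changes were 0 after 1 week and 0.44 after 3 weeks, against -0.03 and 0.01 over all genes. These tests used 3 arrays against 2, and the 95% intervals were wide: for Cd74 after 3 weeks the interval ran from -0.42 to 1.88, and for RT1-Bb from -0.65 to 1.54.

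**Figure D3:**
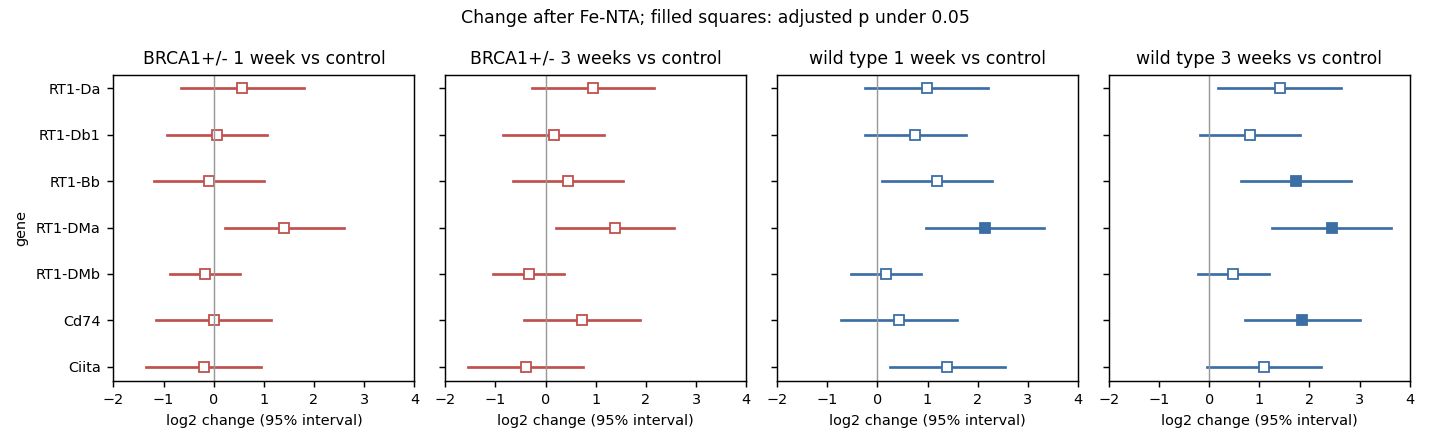
Change after Fe-NTA (x axis, log2, with the 95% interval) of the 7 tested class II genes (y axis) in BRCA1+/- and wild-type cortex after 1 and 3 weeks; filled squares passed an adjusted p of 0.05. The 4 filled squares are RT1-DMa after 1 week and RT1-Bb, RT1-DMa and Cd74 after 3 weeks, all in wild type, and RT1-DMa lies at 1.41 and 1.38 in BRCA1+/-.

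The 3-week and 1-week arrays were also set against each other. In BRCA1+/- cortex 0 of 7 passed (limma; 0 at an unadjusted p under 0.05), where 0.306% of all genes changed. In wild type 0 of 7 passed (1 at an unadjusted p under 0.05), where 8.31% changed. Of all 15987 genes, 1869 in BRCA1+/- and 3774 in wild type were under that unadjusted level. Cd74 had the smallest p in wild type, 1.43 ± 0.48 higher after 3 weeks than after 1 week (adjusted p = 0.082), with overlapping arrays. Without wild-type 1-week replicate 1, the high Cd74 array of that group, it passed (adjusted p = 0.0046), which was so in 1 of 31 alternatives.

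Set against wild type directly, BRCA1+/- cortex differed in 0 of 7 class II genes among controls, after 1 week, after 3 weeks and on average over conditions (limma; 0 at an unadjusted p under 0.05 in each). Of all genes, 0%, 0.588%, 0% and 0% passed in these comparisons. Under that unadjusted level were 740, 2021, 931 and 1210 of all 15987 genes. Among controls all 7 differences were positive, from 0.14 for RT1-Da to 1.07 for Ciita, and after 3 weeks all 7 were negative, from -0.56 to -0.33. For Cd74 the difference was 0.59 ± 0.59 in controls (95% interval -0.66 to 1.85) and -0.54 ± 0.48 after 3 weeks (-1.56 to 0.49), and for RT1-Bb it was 0.73 ± 0.56 (-0.47 to 1.93) and -0.56 ± 0.46 (-1.54 to 0.42). RT1-Bb, RT1-DMb and Cd74 were higher in both BRCA1+/- controls than in both wild-type controls, which was so for 20.5% of all genes. Both intervals for each gene include 0 and differences of either sign, so equal levels are not shown.

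The test of whether Fe-NTA acted differently by genotype passed for 0 of 7 at 1 week and 0 of 7 at 3 weeks (limma; 0 at an unadjusted p under 0.05 at either time), as it did for 0% of all genes. Under that unadjusted level were 1215 of all 15987 genes at 1 week and 761 at 3 weeks. The BRCA1+/- change minus the wild-type change was negative for all 7 genes, from -1.6 to -0.34 at 1 week (lowest adjusted p = 0.65) and from -1.5 to -0.46 at 3 weeks (lowest 0.98). Its median was -0.69 and -1.06, against 0.01 over all genes at both times. That 3 genes passed in wild type and 0 in BRCA1+/- after 3 weeks thus does not show that the genotypes differed. The 1-week and 3-week values share their control arrays, and the controls of the genotypes lay in different slide rows. The shared negative sign therefore cannot be told apart from the row.

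The class II genes varied together, and 1 array stood apart from its group. Across the 16 arrays Pearson r between the 7 tested genes ran from 0.28 (RT1-DMb with Ciita) to 0.88 (RT1-Da with RT1-Bb). These points share groups, slides and array brightness, so r is a description. The mean of the z-scored values of 6 genes (all tested ones but Ciita) was -1.62 on wild-type 1-week replicate 2, under every other array, and 1.25 and 0.74 on replicates 1 and 3 of that group. On the 3 wild-type 3-week arrays it was 0.69, 0.74 and 1.09, and on the wild-type controls -0.96 and -1.24. The BRCA1+/- arrays ran from -0.43 to 0.58 after Fe-NTA and were 0 and -0.79 in the controls. Wild-type 1-week replicate 2 was on slide 2, and replicates 1 and 3 were on slide 1. Without it, 5 of 7 genes passed in wild type after 1 week (RT1-Da, RT1-Db1, RT1-Bb, RT1-DMa and Ciita) and 5 of 7 after 3 weeks (RT1-Da, RT1-Db1, RT1-Bb, RT1-DMa and Cd74), and RT1-DMa passed in BRCA1+/- after 3 weeks. All comparisons share 1 estimate of the spread, so an array also bears on comparisons that do not hold its group.

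**Figure D4:**
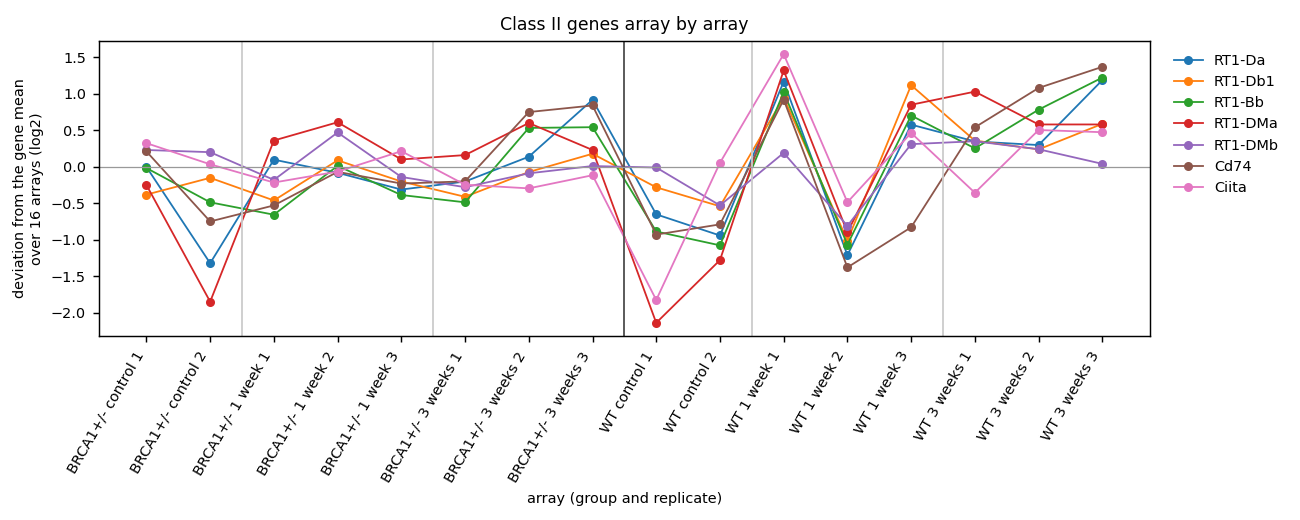
Deviation of 7 class II genes from their own mean over 16 arrays (y axis, log2), array by array (x axis, BRCA1+/- left and wild type right; vertical lines part the groups). All 7 lines lie under 0 on wild-type 1-week replicate 2 and above 0 on wild-type 1-week replicate 1, where the mean z-score was 1.25; on the wild-type controls most lie well under 0, with RT1-DMb near 0 on replicate 1 and Ciita on replicate 2.

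Among other genes with a plain symbol, the 6 whose pattern was most like this mean over the 16 arrays were RT1-Db2 (r = 0.891), Dock1 (0.872), Pltp (0.857), Gm2a (0.857), Ccnd2 (0.843) and Fgfr4 (0.841). Genes named only by an accession or locus number were not ranked. In wild type after 3 weeks their changes ran from 0.96 to 1.56, and Dock1 (1.11, limma adjusted p = 0.046), Gm2a (1.2, 0.045) and Fgfr4 (0.96, 0.024) passed. RT1-Db2 changed by 0.96 (0.24) there and by 0.14 (0.87) in BRCA1+/-.

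Genes around the class II set were counted in the same way, and of all genes 4.26% rose in BRCA1+/- after 1 week and 9.36% after 3 weeks, against 12.8% and 8.74% in wild type. Of 11 tested genes of processing and editing, 2 rose and 0 fell in BRCA1+/- after 1 week and 3 rose and 0 fell after 3 weeks. In wild type 1 rose and 3 fell after 1 week, and 2 rose and 2 fell after 3 weeks, where 27.1% and 14.3% of all genes changed. With so few genes, these counts are not read as particular to the list. Ctss, the protease that trims the invariant chain, rose by 1.79 ± 0.29 in BRCA1+/- (adjusted p = 0.0012) and 1.32 ± 0.29 in wild type (0.0082) after 3 weeks. Ctsd, a lysosomal aspartyl protease, rose by 1.96 ± 0.37 in BRCA1+/- (0.003) and 2.25 ± 0.37 in wild type (0.0012). Ifi30, which reduces disulphide bonds of antigens in the lysosome, rose in BRCA1+/- after 3 weeks (1.14 ± 0.35, 0.039). Ctsb (-1.67 ± 0.44, 0.012) and Ctsh (-1.32 ± 0.35, 0.012), cysteine proteases of the lysosome, fell in wild type after 1 week, and Lgmn, an asparaginyl endopeptidase, fell after 3 weeks (-1.4 ± 0.39, 0.026). RT1-DOa and RT1-DOb, which restrain the DM editor, did not pass the detection filter.

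Of 15 tested genes of the class II promoter and of interferon gamma signalling, 1 rose in BRCA1+/- after 1 week and 3 after 3 weeks, and in wild type 3 rose after 1 week and 2 after 3 weeks, with 0 falling in any. The wild-type counts, 3 and 2 of 15, are close to the 12.8% and 8.74% of all genes that rose. Irf1, an interferon-induced transcription factor that acts on Ciita, rose by 2.46 ± 0.49 in BRCA1+/- (adjusted p = 0.0045) and 2.11 ± 0.49 in wild type (0.011) after 3 weeks. Ifngr1, a chain of the interferon gamma receptor, rose by 1.24 ± 0.3 (0.014) and 1.43 ± 0.3 (0.0061). Nfya, a subunit of the factor that binds the Y box, was at least 1.51-fold higher in wild type after 1 week (0.041). That bound takes each control array's own floor, as for RT1-DMa. The Nfya mean after 1 week was -0.69, so against the common detection limit of -1.05 the bound would be lower. Ifng itself did not pass the detection filter.

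The class I loading genes load peptides onto the other class of MHC molecule, and several lie in the same chromosomal complex. Of 7 tested, 3 rose in BRCA1+/- after 1 week and 5 after 3 weeks, and 6 rose in wild type after 1 week and 6 after 3 weeks, with 0 falling. After 3 weeks Psmb8, a subunit of the immunoproteasome, rose by 2.79 ± 0.32 in BRCA1+/- (adjusted p = 9.8e-05) and 2.86 ± 0.32 in wild type (0.00011). Psmb9, another such subunit, rose by 1.89 ± 0.25 (0.00023) and 2 ± 0.25 (2e-04). The median change of the list after 3 weeks was 1.89 in BRCA1+/- and 2 in wild type, against 0.44 and 1.41 for the class II genes. No test was run between the lists. Of 8 costimulation genes 2 were tested, and Icoslg, the ligand of ICOS, fell in both genotypes at both times. Its changes after 3 weeks were -1.72 ± 0.39 in BRCA1+/- (0.009) and -1.48 ± 0.39 in wild type (0.02).

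Some leukocyte markers rose, mainly those of macrophages, and others did not. In bulk tissue, fewer cells of a type and less RNA per cell cannot be told apart. The summed scaled signal of 6 pan-leukocyte genes was 13.3 to 23.1 in BRCA1+/- after 1 week and 21 to 36.5 after 3 weeks, against 9 to 11.4 in BRCA1+/- controls. It was 14.6 to 29.2 in wild type after 1 week and 20.1 to 29.2 after 3 weeks, against 8.32 to 9.85 in wild-type controls. On wild-type 1-week replicate 2, the array with low class II signal, the sum was 15, against 29.2 and 14.6 on replicates 1 and 3. Of these 6 genes 4 rose in BRCA1+/- and 2 in wild type after 3 weeks. After 1 week 0 passed in BRCA1+/- (limma; 1 at an unadjusted p under 0.05) and 2 rose in wild type. In BRCA1+/- after 1 week 3657 of all 15987 genes were under that unadjusted level.

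Of 13 tested macrophage genes, 6 rose and 1 fell in BRCA1+/- after 1 week, and 9 rose and 2 fell after 3 weeks. In wild type 8 rose and 0 fell at each time. Trem2, a receptor of lipid-handling macrophages, rose by 4.31 ± 0.55 in BRCA1+/- after 3 weeks (adjusted p = 2e-04) and was at least 16.4-fold higher in wild type (0.00016). Itgam, also of this list, fell in BRCA1+/- after 1 week (-3.83 ± 1.02, 0.033), with group means of 0.64 after 1 week and 4.47 in controls. The macrophage sum was 300 to 412 in BRCA1+/- after 3 weeks, against 187 to 289 in its controls, and 225 to 309 in wild type after 3 weeks, against 116 to 167 in its controls. After 1 week it was 160 to 264 in BRCA1+/- and 158 to 276 in wild type, and both overlapped their controls. Of 10 dendritic cell genes 2 were tested, Clec10a and Batf3, and Itgax, Xcr1, Ccr7 and Siglech were well above background on no array. Batf3 did not pass in either genotype at either time, also not at an unadjusted p under 0.05 (limma). The median fitted change of these 2 genes after 3 weeks was 1.67 in BRCA1+/- and 1.25 in wild type, against 3.58 and 2.76 for Clec10a. Clec10a, a lectin of dendritic cells and macrophages, was at least 3.15-fold higher in BRCA1+/- (0.0017) and at least 1.72-fold higher in wild type (0.0084) after 3 weeks. It was well above background on 0 control arrays, on 2 of 3 BRCA1+/- and 1 of 3 wild-type arrays after 1 week and on all 3-week arrays, so it was tested only through the groups where it was high. The bounds of Clec10a and Trem2 take each control array's own floor, as for RT1-DMa. Clec10a means after 3 weeks were -0.73 in BRCA1+/- and -0.58 in wild type. Against the common detection limit of -1.05 its bounds would be lower. Among B cell genes Bank1 was well above background on no array and 4 of 10 were tested, with sums of 24.7 to 37.3 in BRCA1+/- after 3 weeks against 63.5 to 132 in its controls, and 33.3 to 43.1 in wild type against 48.6 to 84.4. That sum holds Pax5, a B cell transcription factor, which fell in BRCA1+/- after 3 weeks (-1.68 ± 0.37, 0.0082), with group means of 4.81 after 3 weeks and 6.49 in controls. Blnk, an adaptor of the B cell receptor, was at least 1.16-fold higher in wild type after 3 weeks by each control array's own floor (0.024). Its 3-week mean of -1.15 lay under the common detection limit of -1.05. The median change of the 4 B cell genes was 0.53 in BRCA1+/- and 0.57 in wild type. The summed signal and the median thus ran in opposite directions. Of 5 neutrophil genes 2 were tested and 0 passed after 3 weeks in either genotype (limma; 0 at an unadjusted p under 0.05 in BRCA1+/- and 1 in wild type), with sums of 0.402 to 0.953 in BRCA1+/- against 0.497 to 0.588 in its controls, and 0.43 to 0.55 in wild type against 0.847 to 1.05. Of 12 T cell genes 6 were tested and 0 passed after 3 weeks in BRCA1+/- or in wild type (limma; 2 at an unadjusted p under 0.05 in each), with Cd2, Cd5 and Cd8a well above background on no array. Of all 15987 genes, 5349 in BRCA1+/- and 4756 in wild type were under that unadjusted level after 3 weeks. The part of leukocytes in the class II result was not tested.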

How the data were processed

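Cy3-labelled total RNA of kidney cortex was hybridised to 16 single-colour Agilent whole rat genome arrays. Per the file headers, the deposited scanner files were made with Agilent Feature Extraction 10.7 and hold spot intensity values (processed signal, background-subtracted, and mean and local background signal), not scaled between arrays, and other columns, flags for control, outlier and well-above-background spots. A value table deposited by the authors is in log2 and matched the scaled values below (median difference -0.0062); it served as an alternative only.

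Of 62976 spots per array, 4259 control spots and the outlier spots (317 to 587 per array) were left out, and spots of a probe were averaged, giving 45598 probes. Each log2 processed signal had the array's 75th percentile over non-control probes subtracted. The filter kept 20396 probes, those with a signal well above background throughout 1 or more groups, and a gene is its probe with the highest mean. Symbols were updated through the sequence accession for 21229 probes. Tests used lmFit and eBayes of limma 3.58.1 under R 4.3.3 (1 mean per group, 10 residual and 4.9 prior degrees of freedom, two-sided, Benjamini-Hochberg adjustment over 15987 genes, called under 0.05); p-values in brackets are such adjusted p-values unless another name is given. The comparisons were Fe-NTA against controls at each time within each genotype, 3 weeks against 1 week, BRCA1+/- against wild type in each condition and averaged, and the interactions of genotype and Fe-NTA. The script was tested on simulated data.

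The members and gene lists were chosen with earlier results of these data known. Every member is named. From pathway lists at most the 3 called genes with the smallest p per Fe-NTA comparison are named, and from marker lists at most 2. Also named are the 6 plain-symbol genes with the highest correlation to the mean of the class II genes other than Ciita. A plain symbol is a short name with a lower-case letter that is not an accession or locus number. Itgam, a macrophage list gene that fell, and Batf3, a dendritic cell list gene that did not pass, are named besides. Some genes of these lists are not reported here by name. The alternatives were quantile and median scaling, normexp background correction, dim values set to a detection limit of -1.05, no or a stricter detection filter, all probes as rows or averaged, the authors' table, a fit of the compared groups alone, slide as a block and within slides, the replicate number as a block, a variance trend, and leaving out each array. The replicate numbers were checked for pairing: of 22 same-numbered pairs 5 correlated above 0.1 (-0.31 to 0.44). These are correlations of deviations from group means, which are bound to each other in groups of 2 or 3 arrays, so they cannot exclude pairing. The main tests did not use the numbers as pairs.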

Additional observations from a re-analysis of the deposited data

Results flagged for a closer look

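RT1-Ba is not part of the filtered comparisons because it was not well above background on every array of any group. It was nevertheless well above background on 4 of 12 arrays after Fe-NTA and on 0 of 4 control arrays, which is why it is listed here. The 4 arrays belong to 3 groups, and in a fit without the filter none of the 12 comparisons passed (limma, lowest adjusted p = 0.61).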

How the results depend on the processing

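The count of class II genes that passed depended on single arrays and on the treatment of dim signals, while 0 of the 4 called changes turned its sign under any of the 31 alternatives. In wild type after 1 week, 1 gene passed, and 0 did with normexp background correction, with dim values at the detection limit, with only probes detected on all arrays (which drops RT1-DMa), in a fit of the compared groups alone and within slide 2. Leaving out each array in turn gave 0 to 5: 0 without wild-type control replicate 1, 2 without wild-type control replicate 2 and 5 without wild-type 1-week replicate 2. In wild type after 3 weeks, 3 genes passed, and 0 did with normexp, with dim values at the detection limit, within slide 1 and within slide 2. It was 1 without the detection filter and 5 in a fit of the compared groups alone. With the replicate number as a replicate block 1 passed, RT1-DMa, with adjusted p = 0.067 for RT1-Bb and 0.057 for Cd74, and the block moved the count of members in no other comparison. Leaving out each array gave 0 to 5: 0 without wild-type control replicate 1, 1 without wild-type control replicate 2 or 3-week replicate 2 or 3, and 5 without wild-type 1-week replicate 2. In BRCA1+/- after 3 weeks the count was 1 in place of 0 with the slide as a block, and 0 to 1 over left-out arrays. For wild type 3 weeks against 1 week it was 0 to 1. The causes of these shifts were not tested. The count stayed at 0 in the other 8 comparisons under all 31 alternatives.

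The RT1-DMa call held in 25 of 30 alternatives at each time (log2 0.28 to 2.8 after 1 week and 0.27 to 2.87 after 3 weeks), RT1-Bb in 21 of 31 (1.26 to 2.1) and Cd74 in 21 of 31 (1.6 to 2.31). Of the 80 changes that did not pass, 8 did under some alternative. Over all genes the number called ran from 214 to 5345 in wild type after 1 week (4333 as reported), 3 to 3873 after 3 weeks (2280), 28 to 2300 in BRCA1+/- after 1 week (1194) and 261 to 4721 after 3 weeks (2538). It was 0 to 1996 for 3 weeks against 1 week in wild type (1329), 0 to 218 in BRCA1+/- (49) and 0 to 164 between genotypes after 1 week (94). In the other genotype and interaction comparisons, where 0 were called, it reached at most 41. Dim signal limits RT1-Ba, RT1-DMa and Ciita, whose values near background are not measured levels.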
